A study of Mus musculus with 6 samples.

Results

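The genes of the Kv1 voltage-gated potassium channels and of their cytoplasmic beta subunits were compared in mice between the dorsal root ganglia of the lumbar levels (DRG) and the spinal cord of the same levels (SC). The members were 9 of the 18193 genes that a probe set names on its own, 6 for alpha subunits (Kcna1 to Kcna6) and 3 for beta subunits (Kcnab1 to Kcnab3). They were taken as every probe set whose platform annotation names one of these genes and no other, which gave 21 probe sets of 45101 on the array, 15 for alpha and 6 for beta subunits. All 21 were among the 45028 probe sets tested. The animals were untreated male C57BL/6J mice aged 3 months, as far as the labels say, and no genotype or other agent is named. RNA came from left and right ganglia or cord of levels L1 to L6, with 3 arrays per tissue and 4 mice pooled for each array. The pools of a tissue are described as independent, so p-values measure the spread between pools, and both tissues are mixtures of neurons, glia, vessels and connective tissue.

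Kv1 alpha subunits assemble as tetramers, often of different members, into channels that open close to the resting potential and limit repetitive firing. In myelinated axons of both the peripheral and the central nervous system, channels of Kv1.1 (Kcna1) and Kv1.2 (Kcna2) with the beta subunit Kvbeta2 (Kcnab2) sit beneath the myelin sheath beside the node of Ranvier, at the juxtaparanode. The beta subunits resemble aldo-keto reductases, bind the intracellular side of the alpha subunits, assist their trafficking, and in the case of Kvbeta1 (Kcnab1) can add a fast inactivation gate.

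Among the 9 genes, Kcnab3 had the largest fitted log2 differences between the tissues, toward SC. Its signals in DRG were near the bottom of the scale, so the size depends on the number added before the log. As described below, its fold could be bounded on 1 probe set only, at 1.59 or more. One probe set of Kcnab2 and both of Kcnab1 were higher in DRG on the deposited array scaling. Among the alpha subunits, the bright probe sets of Kcna1 and Kcna2 gave similar signals in both tissues on that scaling, while Kcna4 (dim in both tissues) and Kcna6 had a probe set higher in DRG and Kcna2 and Kcna6 one higher in SC. Calls toward DRG numbered 5 of the 21 probe sets, those toward SC 4, and 12 probe sets were not called. A call is an adjusted p under 0.05 in limma's test over all probe sets. The background was high, since 32.4% of all tested probe sets were called, 22.7% toward DRG and 9.79% toward SC. At a log2 difference of at least 1, 6 members were called, 3 in each direction, against 13.2% of all probe sets, 8.45% toward DRG and 4.79% toward SC. The 3 arrays of one tissue all lay above those of the other for 13 members, and for 43.6% of all probe sets. The median log2 difference (DRG minus SC) was −0.09 over the 21 members and 0.08 over all probe sets.

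Marker genes mostly matched the tissue labels. The sodium channel gene Scn10a of nociceptors had a mean signal of 1589 in DRG and 9.61 in SC, and Gfap of astrocytes 90.4 in DRG and 6568 in SC. The brightest genes of these 2 lists differed less, Tac1 at 5063 in DRG and 845 in SC and Aldoc at 2410 and 7953. Of 6 genes of large-diameter sensory neurons, 4 were higher in DRG and 1, Scn1a, in SC. Of 6 motor neuron genes, 4 were higher in SC and 1, Isl1, in DRG. Over all tested probe sets, log2 signals correlated at 0.966 to 0.970 among arrays of one tissue and at 0.891 to 0.898 between tissues. Of the marker list for neurons of both tissues, 7 of 8 genes were higher in DRG, with a summed signal of 63996 to 66630 on the DRG arrays and 32000 to 36697 on the SC arrays. Genes of satellite glia and Schwann cells were higher in DRG for 5 of 7 and summed to 13793 to 14580 against 5976 to 6800. Most of that SC sum came from Mal, which was higher in SC, with means of 1268 in DRG and 4105 in SC. All 7 oligodendrocyte genes were higher in SC and summed to 8354 to 9185 in DRG against 21384 to 25419. Most of that DRG sum came from Mbp, with means of 8157 in DRG and 10962 in SC. The part of these cell mixtures in the differences described here was not tested, and in bulk tissue fewer cells of a type and less RNA per cell cannot be told apart.

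The direction of modest differences depended on how the arrays were scaled. The signals before the array scaling were not free of scaling. Their trimmed mean, the mean without the highest and lowest values, lay between 247.3 and 247.5 on every array. Their medians ran from 82.6 to 109.95, whereas the deposited scaling gave medians of 95.8 to 96.1. The calls toward DRG and toward SC were 4 and 10 of 21 before the array scaling (13.3% and 19.9% of all probe sets) and 3 and 11 after quantile normalization (14.9% and 14.4%). The median probe set lay at 0.08 on the deposited scaling, at −0.18 before the array scaling and at 0.01 after quantile normalization. In the brightest 10% of probe sets, which hold 9 of the 21 members, the medians were 0.54, 0.18 and 0.01 in that order. Of the 21 members, 16 kept the sign of their difference on the 3 scalings, as did 75.8% of all probe sets, and 7 were called in the same direction on all of them, as were 21.6%. These 7 were both probe sets of Kcnab3, 1416956_at of Kcnab2, the dim 1438613_at of Kcna4, 1441049_at and 1456954_at of Kcna6 and 1422197_at of Kcna2. They also kept their calls in every other alternative that tested the same probe set.

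The genes with a probe set called higher in DRG were Kcna4, Kcna6, Kcnab1 and Kcnab2. Their promoter sequences are shown because these 4 hold the calls toward DRG. Each is the 250 bases before the most upstream start listed by RefSeq on assembly GRCm38.p6, 5′ to 3′, and the capitals mark GC boxes (GGGCGG or, on the other strand, CCGCCC) and CCAAT boxes (CCAAT or ATTGG).
Kcna4 (chr2:107290339-107290588, plus strand): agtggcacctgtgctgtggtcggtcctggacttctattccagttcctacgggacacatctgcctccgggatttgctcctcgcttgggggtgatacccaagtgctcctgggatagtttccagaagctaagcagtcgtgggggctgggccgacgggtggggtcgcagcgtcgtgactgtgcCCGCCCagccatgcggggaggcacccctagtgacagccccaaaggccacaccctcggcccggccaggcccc
Kcna6 (chr6:126740675-126740924, minus strand): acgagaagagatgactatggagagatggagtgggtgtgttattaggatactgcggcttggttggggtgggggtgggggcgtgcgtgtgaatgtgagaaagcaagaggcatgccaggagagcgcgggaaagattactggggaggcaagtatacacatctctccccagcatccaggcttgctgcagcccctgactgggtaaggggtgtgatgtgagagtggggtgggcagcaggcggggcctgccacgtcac
Kcnab1 (chr3:64948962-64949211, plus strand): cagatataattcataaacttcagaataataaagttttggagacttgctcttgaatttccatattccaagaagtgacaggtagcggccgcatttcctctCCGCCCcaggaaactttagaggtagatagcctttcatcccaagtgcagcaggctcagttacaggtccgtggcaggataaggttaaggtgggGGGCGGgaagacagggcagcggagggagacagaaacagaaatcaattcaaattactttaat
Kcnab2 (chr4:152477550-152477799, minus strand): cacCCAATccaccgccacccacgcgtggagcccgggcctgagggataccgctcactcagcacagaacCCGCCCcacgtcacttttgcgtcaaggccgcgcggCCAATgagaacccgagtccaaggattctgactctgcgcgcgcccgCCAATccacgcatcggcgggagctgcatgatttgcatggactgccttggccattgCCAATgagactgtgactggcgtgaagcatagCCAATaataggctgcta
The Kcnab2 window held 5 CCAAT boxes and 1 GC box, the Kcnab1 window 2 GC boxes and the Kcna4 window 1, and neither motif was found in that of Kcna6. A TATA box (TATAAA or TTTATA) was found in none of them. Over the 32851 RefSeq windows of the same length, 32.7% held a GC box, 33.8% a CCAAT box and 12.4% a TATA box. The dinucleotide CG occurred 20 times in the Kcnab2 window, 14 in Kcna4, 8 in Kcna6 and 6 in Kcnab1, where the median of all windows was 6. RefSeq lists 3 starts each for Kcnab1 and Kcnab2, and which of their transcripts each probe set matches was not tested. The matches describe the letters of these windows and were not tied to the signals. Promoters of 7 of the 9 genes were matched by symbol, Kcna1 and Kcnab3 being the others.

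Kcnab3 encodes Kvbeta3, a beta subunit with an inactivating amino-terminal part that is known mainly from the brain. On probe set 1421790_a_at its signals were 7.17, 49.0 and 22.5 on the DRG arrays and 247, 419.6 and 362 on the SC arrays. On probe set 1423950_at they were 7.75, 3.62 and 5.23 in DRG against 161, 299 and 269.5 in SC. Every SC array stood above every DRG array on both. The log2 differences, taken on log2(signal + 16) here and throughout, were −3.18 ± 0.36 (SE, limma adjusted p = 0.00011) and −3.55 ± 0.28 (limma adjusted p = 1.01e-05). The size depends on the number added: the pair of values was −2.17 and −2.11 with 64 added, −3.98 and −5.22 with 1 added, and −4.07 and −5.48 on the log2 ratio, each called. As a yardstick of dim signals, the 95th percentile of 54 probe sets for genes not expected in either tissue lay between 138.1 and 276 on the 6 arrays. The first probe set exceeded this level on all 3 SC arrays, and its fold toward SC was at least 1.59 when its DRG signal is set to the level. The second exceeded it on 1 of 3 SC arrays, so no such bound is given. The SC marker lists moved the same way, with all 5 genes of inhibitory spinal neurons (summed signal 126 to 161 in DRG and 6655 to 7115 in SC) and all 7 astrocyte genes higher in SC; their part in this result was not tested.

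Kcnab2 encodes Kvbeta2, the beta subunit found with Kv1.1 and Kv1.2 at the juxtaparanode, and its 2 probe sets disagreed. On 1416956_at, signals were 4390.4, 3993 and 4274 in DRG against 1954, 1777 and 1806 in SC. The groups lay well apart, the DRG signal being 2.29-fold higher. The log2 difference was 1.19 ± 0.07 (SE, limma adjusted p = 1.95e-06), and it was 0.82 before the array scaling and 0.59 after quantile normalization, still called (limma adjusted p = 9.68e-06 and 4.57e-05). On 1425885_a_at, whose suffix marks a match to several transcripts of a gene, signals were 1471, 1305 and 1403 in DRG against 1552, 1758 and 1272 in SC, and the groups overlapped. Its log2 difference of −0.12 had a 95% interval of −0.38 to 0.14 (limma adjusted p = 0.493). This second probe set was called higher in SC before the array scaling, at −0.49 (limma adjusted p = 0.00636), and after quantile normalization, at −0.69 (limma adjusted p = 0.0011).

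Kcnab1 encodes Kvbeta1, the subunit that carries the inactivation gate. On 1448468_a_at, signals were 2409, 2524 and 2519.8 in DRG against 1502, 1459.9 and 1342 in SC, so that every DRG array exceeded every SC array. The log2 difference was 0.79 ± 0.07 (SE, limma adjusted p = 2.09e-05), or 1.73-fold. It fell to 0.42 before the array scaling (limma adjusted p = 0.00131) and to 0.20 after quantile normalization, where it was not called (limma adjusted p = 0.0572). The second probe set, 1454043_a_at, had signals of 782, 884 and 819 in DRG and 685, 648 and 639 in SC and a smaller difference of 0.33 ± 0.08 (SE, limma adjusted p = 0.009). It turned to −0.039 before the array scaling and −0.12 after quantile normalization, neither called. Both Kcnab1 probe sets lay in the brightest 10%, whose median difference on the deposited scaling was 0.54.

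**Figure D1:**
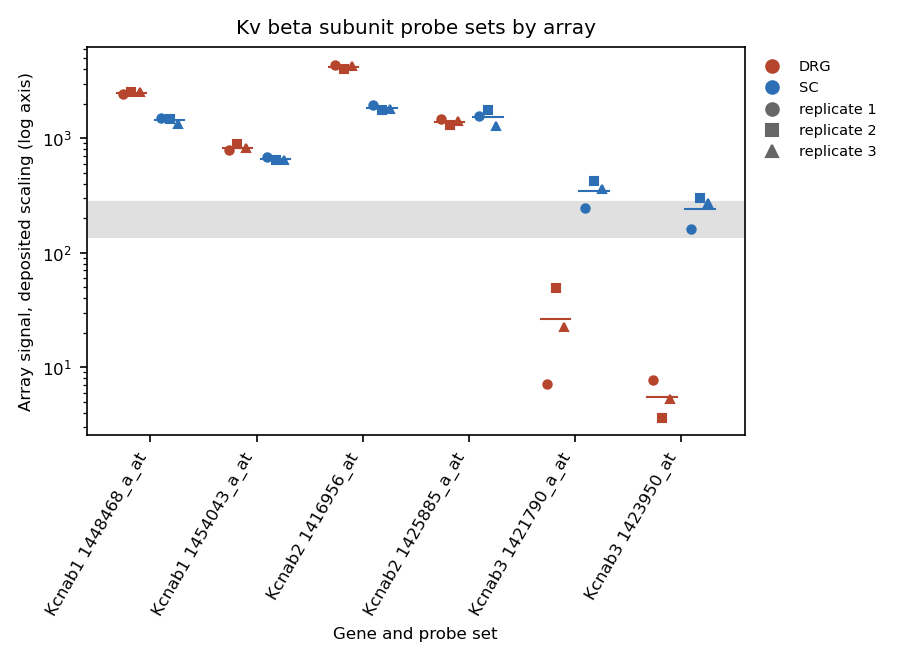
Signals of the 6 beta subunit probe sets on the 3 DRG and 3 SC arrays (vertical log axis, deposited scaling), with horizontal lines for group means and symbols for replicate numbers; the grey band spans the level of genes not expected on the 6 arrays, 138.1 to 276. The DRG signals of Kcnab3 lie below the band at 3.62 to 49.0, while 1416956_at of Kcnab2 is at 3993 to 4390.4 in DRG and 1777 to 1954 in SC.

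Because an array factor largely drops out of a difference taken within an array, Kcnab1 was also set against Kcnab2 in each array, using the brightest probe set of each gene. Kcnab1 minus Kcnab2 was −0.76 ± 0.10 in DRG and −0.36 ± 0.07 in SC (SD, n = 3 each, log2 scale), with no overlap. The tissues differed by −0.40. The exact permutation test, two-sided over 6 arrays, gave p = 0.1, the smallest this design allows, and 0.2 adjusted over the 2 pairs compared. The difference was −0.39 to −0.40 under 5 other treatments of the values, namely 2 pseudocounts, the log2 ratio and 2 array scalings. Such treatments hardly move a within-array difference of bright probe sets, so this likeness adds no support. The sign depended on the probe sets: over the 4 combinations above the level of genes not expected on all 6 arrays, the tissue difference was −0.40 and −0.86 with 1416956_at of Kcnab2 and 0.91 and 0.45 with 1425885_a_at, so no order of the 2 genes is stated. The level of one probe set is not comparable with that of another. Averaged over probe sets, Kcnab1 differed between the tissues by 0.56 and Kcnab2 by 0.53.

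Kcna1 encodes Kv1.1, the low-threshold alpha subunit whose loss causes seizures in mice. Its probe set 1455785_at had signals of 3874, 3424 and 3412 in DRG against 3348, 3145 and 3026 in SC. The DRG arrays were all slightly higher, but the log2 difference of 0.17 ± 0.08 was not called (SE, limma adjusted p = 0.149), with a 95% interval of −0.01 to 0.35. Probe set 1437230_at gave 2406, 1945 and 2203 in DRG and 2484, 2491 and 2287 in SC, a difference of −0.15 with an interval of −0.35 to 0.05. Probe set 1417416_at gave 2573, 1339.5 and 2019.9 in DRG and 2194, 2150.4 and 1847 in SC, with the widest scatter of the 3 bright ones and an interval of −0.56 to 0.34. The fourth, 1442413_at, was dim, at 44.5 to 59.4 in DRG and 24.6 to 69.9 in SC, and exceeded the level of genes not expected on no array. The scaling moved these values. After quantile normalization the 3 bright probe sets were called higher in SC, at −0.42, −0.75 and −0.70 in the order given (limma adjusted p = 0.00126, 4.51e-05 and 0.0131). Before the array scaling they were at −0.20, −0.52 and −0.48, of which the second was called (limma adjusted p = 0.000598).

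Kcna2 encodes Kv1.2, the usual partner of Kv1.1 in axons. Probe set 1439872_at had signals of 1943, 1928 and 2147 in DRG and 1879, 1802 and 1781 in SC, and 1440759_at had 1675, 1687 and 1922 in DRG against 1591, 1671 and 1704 in SC. The log2 differences were 0.14 ± 0.07 and 0.09 ± 0.08 (SE), not called (limma adjusted p = 0.185 and 0.465), with intervals of −0.02 to 0.30 and −0.09 to 0.26. Both turned and were called higher in SC on the other scalings, at −0.23 and −0.28 before the array scaling (limma adjusted p = 0.0199 and 0.0141) and at −0.45 and −0.50 after quantile normalization (limma adjusted p = 0.000348 and 0.000511). All 5 alpha probe sets in the brightest 10% belong to Kcna1 and Kcna2, and all 5 lay under the median of those probe sets, 0.54, on the deposited scaling.

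A further Kcna2 probe set, 1422197_at, differed from these. Its signals were 496, 581 and 549.7 in DRG against 885, 1016 and 809 in SC, without overlap. The log2 difference was −0.72 ± 0.10 (SE, limma adjusted p = 0.000436), and −1.08 and −1.16 before the array scaling and after quantile normalization. The last, 1457911_at, read 55.3 to 61.1 in DRG and 63.7 to 69.3 in SC and exceeded the level of genes not expected on no array.

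Kcna1 and Kcna2 were also set against each other within arrays. The difference of Kcna1 minus Kcna2, by the brightest probe set of each, was 0.83 ± 0.16 in DRG and 0.80 ± 0.03 in SC (SD, n = 3 each, log2 scale). The tissues differed by 0.03 (exact permutation test, two-sided, p = 0.8, also 0.8 adjusted over the 2 pairs), and leaving out 1 array at a time moved this between −0.05 and 0.11. The DRG values ran from 0.66 to 0.99, on both sides of the SC range of 0.76 to 0.83. Other probe sets gave other values. Over the 9 combinations above the level of genes not expected on all 6 arrays, the tissue difference ran from −0.29 to 0.88, was positive in 5 and negative in 4, and the arrays did not overlap in 3. The combinations reuse the same few probe sets, so they are not separate observations. No share over other pairs of genes was computed. The 3 combinations with 1422197_at of Kcna2 were the highest, at 0.57 to 0.88.

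Kcna6 encodes Kv1.6, a delayed rectifier subunit that joins other Kv1 subunits in neurons, and its 3 probe sets gave 3 different answers. On 1456954_at, signals were 572, 775 and 1164 in DRG against 351, 314 and 322 in SC. The DRG arrays were all higher, though widely scattered, and the log2 difference was 1.25 ± 0.21, or 2.44-fold (SE, limma adjusted p = 0.00125). On 1441049_at, signals were 163, 181 and 186 in DRG against 333, 389.7 and 415 in SC, the opposite order, again without overlap. The log2 difference was −1.03 ± 0.12 (SE, limma adjusted p = 0.000115). Its DRG signals were under the level of genes not expected on all 3 arrays, so that its fold toward SC was at least 1.80. On 1421568_at, signals were 386, 339.8 and 448 in DRG against 411, 431 and 404 in SC, with a difference of −0.09 and an interval of −0.34 to 0.16. The opposite calls of the first pair held on the 3 scalings, at 0.89 and −1.38 before the array scaling and at 0.91 and −1.24 after quantile normalization. The third probe set was called higher in SC on both other scalings, at −0.45 and −0.40 (limma adjusted p = 0.0066 and 0.0117). With the mean of its probe sets, the gene differed by 0.04 (limma adjusted p = 0.826). Which transcripts each probe set matches is not given in the sources used here, so no direction is stated for Kcna6 as a gene.

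Kcna4 encodes Kv1.4, the fast-inactivating alpha subunit, which in sensory ganglia is known from small-diameter neurons. Probe set 1438613_at read 144, 141 and 163 in DRG against 36.7, 42.5 and 43.8 in SC. Every DRG array exceeded every SC array, and the probe set was called toward DRG (limma adjusted p = 0.000245). All 6 signals were under the level of genes not expected, so no size is given for this difference. The other probe set, 1422255_at, read 249, 160.2 and 389 in DRG and 251, 157 and 161 in SC, with overlap and a difference of 0.40 in an interval of −0.25 to 1.05 (limma adjusted p = 0.353). Although the brighter 1422255_at alone was not called, Kcna4 was called higher in DRG when averaged over both, the dim 1438613_at included (limma adjusted p = 0.00293). The nociceptor genes moved the same way, 5 of 5 higher in DRG with a summed signal of 16987 to 17612 against 712 to 1174. So did 4 of 5 fibroblast genes, 7 of 8 of neurons of both tissues and 5 of 7 of satellite glia and Schwann cells. The part of these cell types was not tested.

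Kcna3 and Kcna5 encode Kv1.3, known from lymphocytes, microglia and macrophages, and Kv1.5, known from vascular smooth muscle and glia. Each had 1 probe set, and both were under the level of genes not expected on every array. Kcna3 read 92.1, 89.96 and 18.9 in DRG against 99.2, 110.01 and 110.3 in SC. The third DRG array was low, and the probe set was not called (limma adjusted p = 0.227). Kcna5 read 83.0, 56.4 and 34.4 in DRG and 90.1, 76.7 and 105 in SC, and was not called (limma adjusted p = 0.173) except toward SC before the array scaling (limma adjusted p = 0.0414). The T cell list had 0 of 5 genes called and none above that level on all arrays of a tissue. Of the 6 microglia and macrophage genes 1 was called toward DRG and 3 toward SC, and of the 5 smooth muscle genes 2 were higher in DRG.

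**Figure D2:**
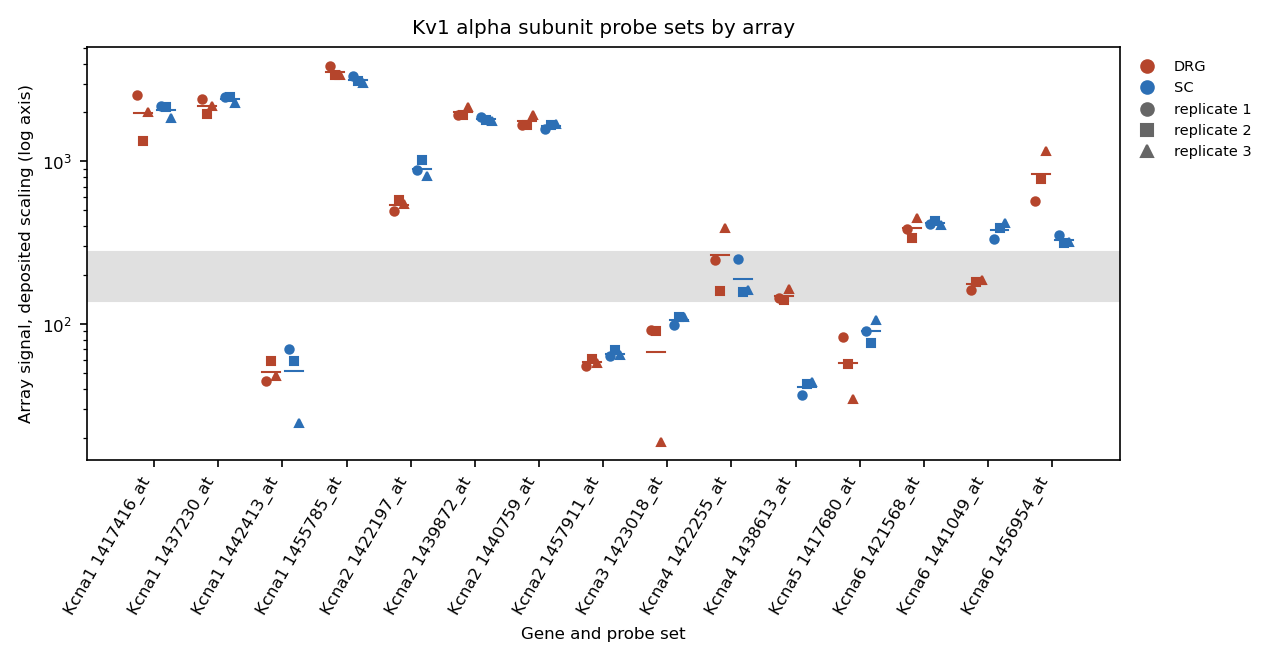
Signals of the 15 alpha subunit probe sets on the 3 DRG and 3 SC arrays (vertical log axis, deposited scaling), with group means as lines, replicate numbers as symbols and the level of genes not expected as a grey band. The bright probe sets of Kcna1 and Kcna2 overlap or nearly touch between tissues, and 1456954_at and 1441049_at of Kcna6 lie in opposite order.

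**Figure D3:**
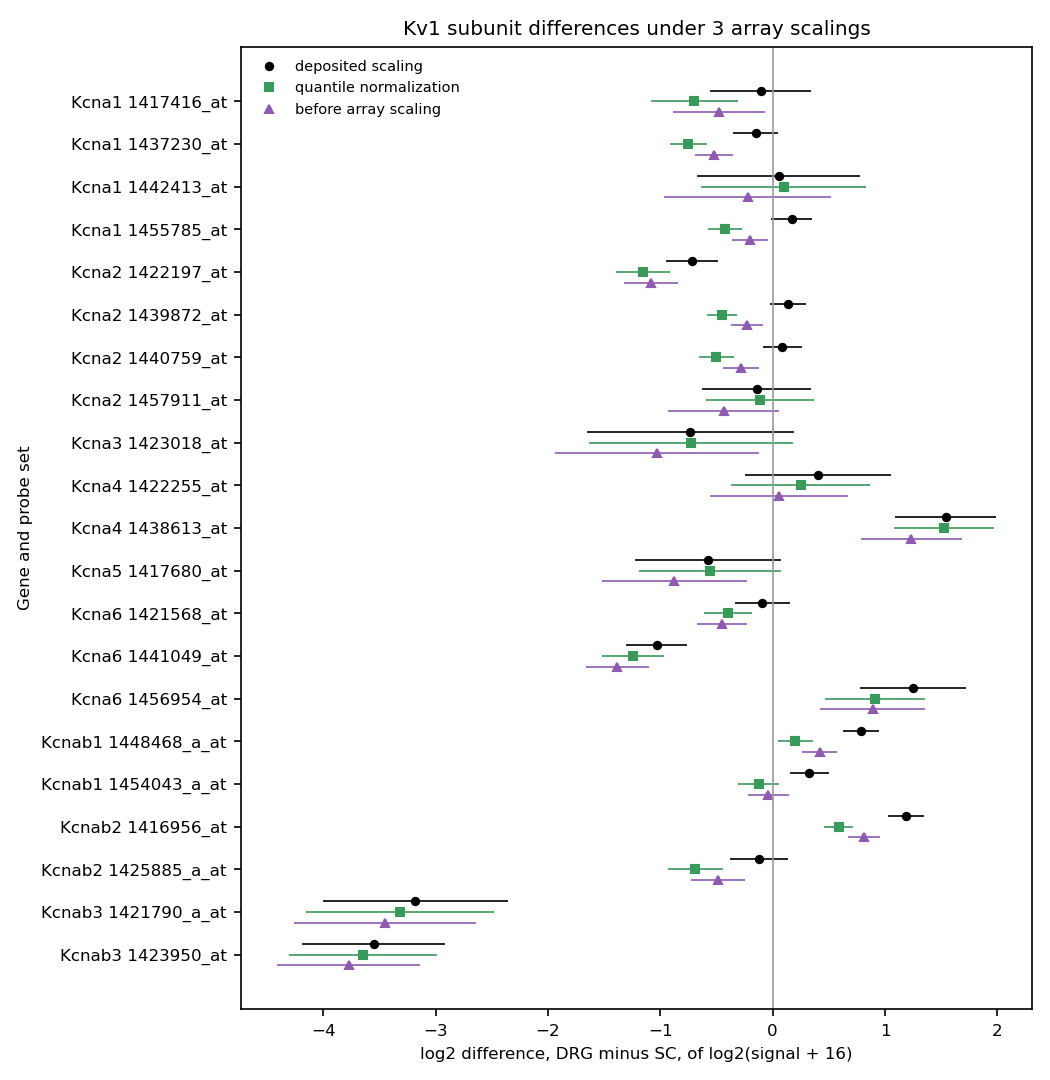
Log2 difference DRG minus SC with its 95% interval (limma) for the 21 probe sets on the deposited scaling (circles), after quantile normalization (squares) and before the array scaling (triangles). The bright Kcna1 and Kcna2 probe sets near 0 on the deposited scaling lie at negative values on the others. The dim 1442413_at of Kcna1 is at 0.10 after quantile normalization. Kcnab3 stays between −3.18 and −3.77 on these scalings, all with 16 added.

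In the genome, Kcna5, Kcna1 and Kcna6 are neighbours among the protein-coding genes of chromosome 6, and Kcna3, Kcna2 and Kcna10 are neighbours on chromosome 3 (RefSeq, GRCm38.p6). Around Kcna1, whose bright probe sets were not called, Kcna5 was dim and Kcna6 had calls both ways. Beyond the 9 members, the alpha subunit gene Kcna7, known from muscle, was dim at 49.3 to 50.7 in DRG and 26.8 to 109.2 in SC and was not called (limma adjusted p = 0.676).

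The proteins that anchor, cluster or modify Kv1 channels were followed by a list of 20 genes, of which 18 were measured, each by its brightest probe set. Calls toward DRG numbered 7, calls toward SC 5, and 6 genes were not called. Over the 18190 genes tested, 41.5% were called, 31.8% toward DRG and 9.69% toward SC. The list's median difference was 0.29 on the deposited scaling, and −0.06 and −0.05 before the array scaling and after quantile normalization, where the split was 5 against 7 on each.

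On the deposited scaling, the list's share toward DRG, 7 of 18, lies near the 31.8% of all genes. Its share toward SC, 5 of 18, lies above the 9.69% of all genes. No test of the list was made. The genes below are described singly, the 5 called with the largest difference in each direction. Cntnap2 (Caspr2), the adhesion molecule that holds Kv1 channels at the juxtaparanode, had a mean signal of 1402 ± 48.3 in DRG against 825 ± 8.47 in SC (SD, n = 3 each) and differed by 0.75 ± 0.07 (SE, limma adjusted p = 1.78e-05). For Cntn2 (TAG-1), its axonal and glial partner, the 4 probe sets disagreed. The brightest differed by 0.19 and was not called (limma adjusted p = 0.169), 1 was called toward DRG at 0.54 and 2 toward SC at −0.49 and −1.27, and the mean of the probe sets was −0.26, so no direction is stated. Epb41l3, the cytoskeletal linker protein 4.1B, differed by 0.80 ± 0.07 (SE, limma adjusted p = 2.3e-05). Among the ADAM proteins without protease activity that bind Kv1 complexes, Adam22 differed by 0.98 ± 0.08 and Adam11 by 1.26 ± 0.13 (SE, limma adjusted p = 1.79e-05 and 4.69e-05). Cttn, the actin-binding protein cortactin, which interacts with Kv1.2, differed by 1.24 ± 0.08 (SE, limma adjusted p = 2.99e-06). By the brightest probe set, these 5 called genes kept their direction and call on the 3 scalings, with differences of 0.23 to 0.94 after quantile normalization. Their other probe sets were not all called. Calls toward DRG were 2 of 3 probe sets for Cntnap2, 2 of 3 for Epb41l3, 1 of 2 for Adam22, 2 of 2 for Adam11 and 3 of 5 for Cttn. No probe set of these genes was called toward SC, and the uncalled 1440595_at of Epb41l3 was at −0.30. The calls of Adam23 and of Lgi1, a secreted ligand of ADAM22 and ADAM23, did not hold on the other scalings, and that of Lgi1 was also lost without DRG replicate 2, DRG replicate 3, SC replicate 1 or SC replicate 2 (limma adjusted p = 0.115, 0.109, 0.0832 and 0.135).

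The membrane-associated guanylate kinases, scaffold proteins that bind the carboxyl end of Kv1 alpha subunits, included genes called toward SC. Dlg1, Dlg2 (PSD-93) and Dlg3 were higher in SC at −0.86 ± 0.11, −0.86 ± 0.08 and −0.83 ± 0.11 (SE, limma adjusted p = 0.000267, 2.43e-05 and 0.000218). Dlg2, for example, had means of 516 ± 28.8 in DRG and 948 ± 46.5 in SC (SD, n = 3 each). Dlg4 (PSD-95), the scaffold of excitatory synapses, was at −0.54 (limma adjusted p = 0.0571) and was called on both other scalings. Lgi2 and Lgi3, relatives of Lgi1, were also higher in SC, at −0.56 ± 0.08 and −0.54 ± 0.07 (SE, limma adjusted p = 0.000379 and 0.000194). All 5 genes called higher in SC were also called on the other 2 scalings. Of the probe sets of each gene, calls toward SC were 2 of 3 for Dlg1, 3 of 3 for Dlg2 and Lgi3, 2 of 2 for Lgi2 and 1 of 1 for Dlg3.

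**Figure D4:**
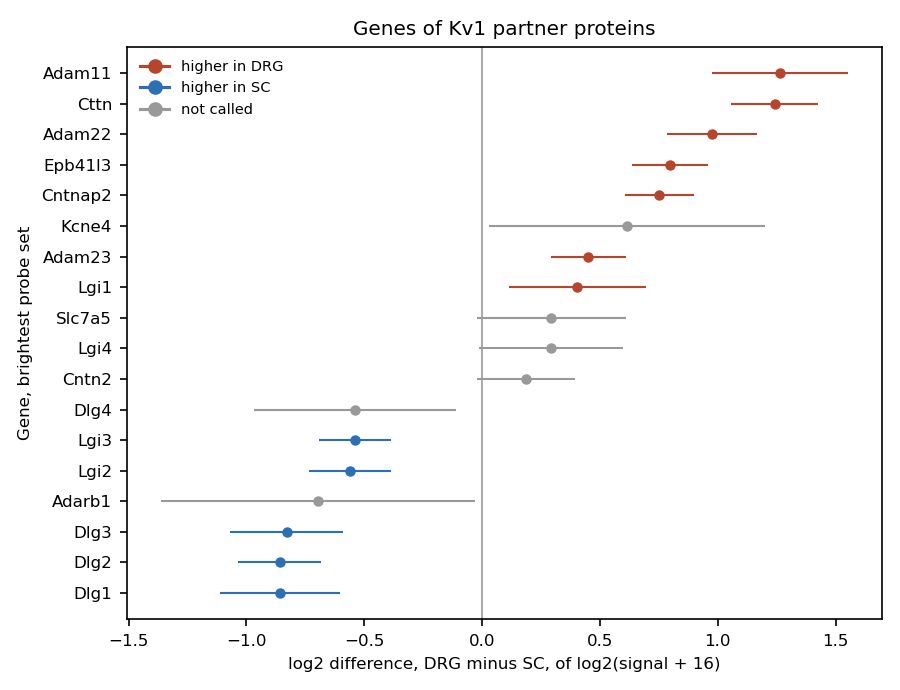
Log2 difference DRG minus SC with its 95% interval (limma, deposited scaling) for 18 genes of Kv1 partner proteins, ordered by difference and coloured by call. Adam11, Cttn, Adam22, Epb41l3 and Cntnap2 lie furthest toward DRG, and Dlg1, Dlg2 and Dlg3 furthest toward SC at −0.83 to −0.86.

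The genes most like 1 member probe set with a call in each direction, chosen by the size of the fitted difference, were found by the root mean square distance of log2 values centred on their mean. For 1438613_at of Kcna4 these were Dpp3, Nipsnap3b and Ube2a, at distances of 0.05, 0.06 and 0.06 among 18190 genes. The Kcna4 probe set is dim, whereas these genes had mean signals of 529, 1027 and 2057 in DRG and 168, 325 and 677 in SC. For 1423950_at of Kcnab3 they were Galnt6, Nkx2-2 and Rfx4, at 0.25 each, with differences of −3.54, −3.50 and −3.50. With 2 tissues and 6 arrays, likeness rests mainly on the size of the tissue difference.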

How the data were processed

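RNA of 3 DRG and 3 SC pools was measured on 3′ expression arrays. Per the submitters' processing notes the authors used MAS5 (no version is named). The deposited values are ratios on a linear scale, and no label describes the steps after MAS5. They showed a division by an array factor and by each probe set's median (91.8% of probe sets have a median of 1). Signals were recovered as the smallest multiple that put all 6 values on MAS5's steps of 0.1, for 45092 of 45101 probe sets; on simulated ones 98.4% came back exactly and 1.61% off by a factor common to the 6 arrays, which changes a level but hardly a difference. The deposited array scaling was kept. limma 3.58.1 in R 4.3.3 fitted the tissue difference of log2(signal + 16) (eBayes with an intensity trend, two-sided, Benjamini-Hochberg over 45028 probe sets, threshold 0.05); control probe sets and those without a recovered signal were left out. Genes were named by GEO's platform annotation, and the member symbols matched RefSeq by Entrez identifier. The level of genes not expected was the 95th percentile of 54 probe sets of 40 genes on each array. A fold toward the brighter tissue is a lower bound where the dimmer one is at or under this level. Arrays carry no counts, and their number limits the precision.

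Alternatives were pseudocounts of 1 and 64, the log2 ratio, 2 other array scalings, a filter on low signal, gene-level values, no intensity trend, the replicate number as a block and each array left out. The named genes were all members, the 5 called partner genes with the largest difference in each direction, other members of that list where they bear on a result, the remaining Kv1 alpha genes and the genes most alike. Kcna10 was not analysed here. The members and lists were chosen with earlier results of these data known. Recovery, tables and figures used Python 3.11.15, numpy 2.4.6, pandas 2.3.3, scipy 1.17.1, numba 0.67.0 and matplotlib 3.10.9.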

Additional observations from a re-analysis of the deposited data

How the results depend on the processing

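Over the alternatives, 278 of 306 member values kept their direction and side of the threshold. Scaling mattered most. All probe sets called higher in DRG numbered 10203, or 6008 before the array scaling and 6722 after quantile normalization, and those higher in SC 4407, or 8968 and 6467. The share of calls higher in DRG was 69.8%, 40.1% and 51.0% in that order. The members' split of 5 against 4 became 4 against 10 before the array scaling and 3 against 11 after quantile normalization. Signs turned, mostly of differences near 0, for 15 of the 306 member values. Before the array scaling these were 1442413_at (−0.22) and 1455785_at (−0.20) of Kcna1, 1439872_at (−0.23) and 1440759_at (−0.28) of Kcna2 and 1454043_a_at of Kcnab1 (−0.039), and among the partners Cntn2 (−0.18), Lgi4 (−0.061) and Slc7a5 (−0.064). After quantile normalization they were 1455785_at (−0.42), 1439872_at (−0.45), 1440759_at (−0.50) and 1454043_a_at (−0.12), and Cntn2 (−0.30), Adam23 (−0.088), Lgi1 (−0.016) and Slc7a5 (−0.0018). With probe sets averaged by gene they were Kcna1 (−0.0094), Kcna2 (−0.16), Cntn2 (−0.26) and Adam23 (−0.067). With 1 value per gene, 5955 and 1861 genes were called by the brightest probe set and 5022 and 2034 by the mean, against 18190 tested, and the members' split was 3 against 1 in both.

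Leaving out 1 array at a time gave 9040 to 10122 and 3531 to 4139 calls over all probe sets, 5 against 4 members each time, and 6 to 9 and 5 to 6 partner genes. Kcna1 minus Kcna2 then ranged from −0.052 to 0.11 and Kcnab1 minus Kcnab2 from −0.45 to −0.35, with no test able to reach the threshold. Signs also turned within the ranges of 1417416_at (−0.32 to 0.15) and 1442413_at (−0.28 to 0.27) of Kcna1, 1421568_at of Kcna6 (−0.19 to 0.0011) and Kcna7 (−0.71 to 0.068), none of them called. Same-numbered deviations correlated at −0.0099, −0.021 and 0.0034 over all tested probe sets. Whether the replicate numbers pair the arrays cannot be told from this, since such a correlation can miss a shared factor that moves few genes. With the replicate block, 9972 and 4181 probe sets and 5 against 4 members were called. Signal over background limits Kcna3, Kcna5, Kcnab3 and the dim probe sets of Kcna1, Kcna2 and Kcna4. In DRG it also limits 1441049_at of Kcna6.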

Other observations

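Probe sets of one gene were compared within arrays, where an array factor largely drops out, for all 19 pairs of the 7 member genes with several probe sets. These pairs were examined after the values were seen and no test was made. The log2 signal of 1416956_at minus 1425885_a_at of Kcnab2 was 1.59 ± 0.02 in DRG and 0.28 ± 0.25 in SC (SD, n = 3 each). That of 1441049_at minus 1456954_at of Kcna6 was −2.09 ± 0.42 in DRG and 0.19 ± 0.23 in SC. The signals of 1441049_at were under the level of genes not expected on every DRG array, so background limits that DRG value. For 1422197_at minus 1440759_at of Kcna2 it was −1.67 ± 0.14 and −0.87 ± 0.18, and for 1448468_a_at minus 1454043_a_at of Kcnab1 1.57 ± 0.06 and 1.11 ± 0.05. By contrast, 1439872_at minus 1440759_at of Kcna2 was 0.19 ± 0.03 and 0.14 ± 0.09, with overlapping arrays. The tissues did not overlap in 12 of the 19 pairs, and in 37.6% of the 30356 such pairs over all genes. Where both probe sets exceeded the level of genes not expected on all 6 arrays, these were 6 of 9 pairs and 47.1% of 4425. The probe sets of Kcnab2, Kcna6, Kcna2 and Kcnab1 named first thus gave unequal differences between the tissues, and an array factor common to both probe sets of a pair hardly moves that inequality.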
